A study of Mus musculus with 4 samples.

Results

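Toll-like receptors and the interleukin-1 receptor share one signaling route, and 10 genes of that route were followed through the ATAC-Seq peak lists of sorted bone marrow hematopoietic stem cells (HSCs): Peli1, Peli2, Peli3, Irak1, Irak4, Traf6, Myd88, Tlr2, Tlr4 and Nlrp3. A member region was any stretch of peaks, merged over the 4 libraries wherever they overlapped by at least 1 bp, that touched one of these gene bodies or the 5000 bp on either side of it. This gave 111 regions of 337776 in the whole series, of which 61 were found in 2 or more libraries, against 137553 in the series. Peli2 was selected on these same data, by the presence and the fold of its peaks: its body holds the highest-ranked region with a peak in both controls and in neither knockout library. That region is therefore described and not tested.

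The study compared mice in which Cpt1a, which encodes the enzyme that lets long-chain fatty acids enter mitochondria for oxidation, had been deleted from blood-forming cells with control mice. The knockout (KO) mice carried floxed Cpt1a alleles and Vav1-Cre, so that deletion followed the Vav1 promoter through the whole hematopoietic system and was not confined to stem cells. The controls were labelled WT, and the study calls them Cpt1a fl/fl. All animals were adult mice fed normal chow, and there were 2 libraries per genotype. The cells were labelled ltHSC, whereas the study calls those used for ATAC-Seq HSPCs, a name that takes in progenitors as well as stem cells. They were frozen after sorting, and the labels did not say whether a library came from 1 mouse or several, so differences between libraries of one genotype may be partly technical.

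ATAC-Seq uses the Tn5 transposase to cut DNA where chromatin is open, and a peak is a place where cuts pile up above the local background. The recognition of microbial products by Toll-like receptors, and of IL-1 by its receptor, brings the adaptor Myd88 to the membrane, where it gathers the kinases Irak4 and Irak1. These pass the signal to Traf6, a ubiquitin ligase whose chains activate the kinases upstream of NF-kappaB. Pellino proteins (Peli1, Peli2 and Peli3) are ubiquitin ligases that bind phosphorylated Irak proteins and modify them, and Nlrp3 is the sensor of an inflammasome that Toll-like receptor signals prime. Hematopoietic stem cells carry several of these receptors and are known to answer such signals by dividing and by turning towards myeloid fates.

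The control lists held 277594 and 262511 summits, those of the KO libraries 266230 and 240940. Peak intervals covered 52.9 and 48.9 Mb in the controls against 42.6 and 44.4 Mb in the KO libraries. A −log10 q of at least 5 was reached by 42.5% and 46.8% of control summits against 40.5% and 35.1% of KO summits. Both measures were lower in both KO libraries, and their bearing on the regions confined to controls was not tested. The lists give no read counts, so sequencing depth is unknown. They hold no summit with a −log10 p under 2, and a region without a peak is one that did not reach that score, not one shown to be closed. Strength was therefore compared as a percentile, the place of a region among all intervals of its own library when ordered by the fold over background that the peak caller gave (100 is strongest). With 2 libraries against 2, no exact two-sided permutation test can give a p below 0.333. The start of Cpt1a itself had a peak in all 4 libraries, at percentiles of 84.3 and 80.9 in the controls against 86.1 and 89.2 in the KO libraries, which does not check the deletion because a promoter peak says nothing about a floxed exon. Of 8 HSC marker genes with an annotated start window (Kit, Procr, Mecom, Hlf, Slamf1, Fgd5, Meis1 and Gata2), 8 had a peak there in all 4 libraries. The same held for 47.8% of all annotated start windows. Mean percentiles of the HSC markers ran from 42.0 (Mecom, at 5.24 in KO 2) to 96.1 (Kit). This range takes in the mean percentiles of the other cells' markers that had a peak in all 4 libraries. Of the markers of other cells with such a window, Cd79a and Pax5 of B cells, Mpo and S100a8 of neutrophils and Cd68 of monocytes had a peak in all 4, at mean percentiles from 44.4 to 70.4. Elane of neutrophils and Cd3g of T cells had one in 3 libraries, at mean percentiles of 13.8 and 56.1, both lacking it in control 1. The starts of Ly6g (neutrophils), Ebf1 (B cells), Cd3e and Cd8a (T cells) and Klf1 and Hbb-bt (erythroid cells) had none. Whether cells other than HSCs contributed to any result was not tested.

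Promoter sequences are shown for Peli2, Traf6 and Nlrp3, which hold every member region confined to 1 genotype, and for Myd88 and Irak1, the genes whose starts ranked apart between genotypes. Each runs from 250 bases before to 50 bases after an annotated start (RefSeq, assembly GRCm38.p6, which has the mm10 coordinates), 5′ to 3′ on the strand of the gene. Capitals mark matches, on either strand, to the short motifs of 6 factors. The letters searched for PU.1, a factor of the myeloid and stem cell compartments, were GAGGAAG. Those for NF-kappaB, the factor at the end of the route itself, were GGANTTTCC. RUNX factors, which are needed for blood stem cells to form, were searched as TGTGGT. For the GATA factors of stem and erythroid cells the letters were AGATAA. AP-1, which responds to many stimuli, was searched as TGANTCA. The letters for CTCF, an organizer of chromatin loops, were CCANNAGNG. The Peli2 window lies at chr14:48120619-48120918 (+), the Traf6 window at chr2:101678170-101678469 (+), the Nlrp3 windows at chr11:59541319-59541618 (+) and chr11:59542436-59542735 (+), the Myd88 window at chr9:119339969-119340268 (−) and the Irak1 window at chrX:74023869-74024168 (−), the first of a pair of Irak1 starts 3 bases apart.
Peli2: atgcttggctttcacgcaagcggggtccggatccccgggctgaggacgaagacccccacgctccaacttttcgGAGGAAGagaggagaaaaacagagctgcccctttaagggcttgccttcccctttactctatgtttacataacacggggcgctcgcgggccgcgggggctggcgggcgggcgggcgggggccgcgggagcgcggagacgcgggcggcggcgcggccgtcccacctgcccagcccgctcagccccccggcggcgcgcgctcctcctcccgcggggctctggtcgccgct
Traf6: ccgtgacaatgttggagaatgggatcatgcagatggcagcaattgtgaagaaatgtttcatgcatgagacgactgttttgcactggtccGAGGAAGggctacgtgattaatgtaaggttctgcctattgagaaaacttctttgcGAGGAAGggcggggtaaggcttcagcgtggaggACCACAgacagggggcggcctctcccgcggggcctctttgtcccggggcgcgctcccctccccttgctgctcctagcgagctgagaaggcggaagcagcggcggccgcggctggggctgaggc
Nlrp3 start 1: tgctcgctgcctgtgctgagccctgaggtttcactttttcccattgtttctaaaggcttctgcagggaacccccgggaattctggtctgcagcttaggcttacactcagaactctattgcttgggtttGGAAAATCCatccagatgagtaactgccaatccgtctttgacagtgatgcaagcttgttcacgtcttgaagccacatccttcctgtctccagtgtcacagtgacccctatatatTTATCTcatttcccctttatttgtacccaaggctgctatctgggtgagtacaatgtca
Nlrp3 start 2: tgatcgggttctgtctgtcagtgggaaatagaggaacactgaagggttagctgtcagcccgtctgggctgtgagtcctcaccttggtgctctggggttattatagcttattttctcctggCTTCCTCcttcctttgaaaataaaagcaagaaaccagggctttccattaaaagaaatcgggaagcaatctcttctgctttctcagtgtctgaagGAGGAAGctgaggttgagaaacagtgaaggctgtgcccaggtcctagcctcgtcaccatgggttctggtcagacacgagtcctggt
Myd88: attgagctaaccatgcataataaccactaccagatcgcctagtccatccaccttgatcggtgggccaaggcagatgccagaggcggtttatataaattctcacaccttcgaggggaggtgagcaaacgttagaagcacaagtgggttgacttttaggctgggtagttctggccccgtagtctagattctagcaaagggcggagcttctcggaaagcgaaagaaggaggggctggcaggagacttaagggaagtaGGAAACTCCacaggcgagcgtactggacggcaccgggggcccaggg
Irak1: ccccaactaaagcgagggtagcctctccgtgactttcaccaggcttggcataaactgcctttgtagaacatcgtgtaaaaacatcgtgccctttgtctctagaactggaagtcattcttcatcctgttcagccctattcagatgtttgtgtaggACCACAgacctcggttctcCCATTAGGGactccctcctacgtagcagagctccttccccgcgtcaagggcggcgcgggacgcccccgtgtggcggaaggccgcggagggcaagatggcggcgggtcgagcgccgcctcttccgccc

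The Peli2 window held 1 match to the PU.1 motif, the Traf6 window 2 and the second Nlrp3 window 2, and 13.4% of all 32619 promoter windows hold at least 1. The NF-kappaB motif, found in 1.26% of all windows, occurred once in the Myd88 window and once in the first Nlrp3 window. The RUNX motif (16.6% of windows) occurred in Traf6 and Irak1, the GATA motif (11.2%) in the first Nlrp3 window and the CTCF motif (18.0%) in Irak1. The windows of Peli1, Peli3, Irak4 and Tlr2 held none of the 6 motifs, and no member window held the AP-1 motif (7.85% of windows). The Peli2 window was 71.7% G and C with 38 CpG dinucleotides, above 92.8% of all windows in G and C content. The 2 Nlrp3 windows were at 47.3% and 49.3%, with 4 and 5 CpG dinucleotides, below the median window at 53% and 7.

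The region that singled out Peli2 lies at chr14:48202111-48203004 (mm10), 81688 bp downstream of the Peli2 start and inside the gene body, which runs from 48120777 to 48281578 on the plus strand. The annotation used here gives gene extents only, so exon or intron could not be stated. The same bases lie within Gm6498, a transcribed pseudogene annotated from 48198716 to 48228413, and the start of the lncRNA gene Gm52144 is 2877 bp away. How reads that fit several copies of a sequence were treated is not given in the sources used here.

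In control 1 the region had 2 summits, and the stronger, at position 48202475, had a fold of 10.3 and a −log10 q of 37.0. In control 2 it had 3 summits, with a fold of 12.0 and a −log10 q of 49.2 at position 48202539. Neither KO 1 nor KO 2 listed any peak within these bases. The main summits of the 2 controls were thus close together, and the weaker ones at 48202914 and 48202938 paired in the same way, with folds of 5.33 and 4.79. By fold the region ranked 18431 of 179257 intervals in control 1 (percentile 89.7) and 13421 of 161962 in control 2 (percentile 91.7). At 894 bp it was wider than the median region confined to controls (191 bp) and the median region held by all 4 libraries (526 bp). The nearest KO peaks ended 1669 bp before it in both KO libraries and began 5421 bp after it in KO 1 and 4297 bp after it in KO 2.

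Across the series 8325 regions had a peak in both controls and in neither KO library. By the lower of its 2 control percentiles the Peli2 region ranked 1 among them, at 89.7, and the second stood at 82.8. The highest such value among regions confined to the KO libraries was 87.9. In all, 14827 regions were at or above 89.7 in both controls, and 14826 of these had a peak in both KO libraries, leaving 1 without (0.00674%), which is the Peli2 region itself. Of 15841 regions at least as strong in both KO libraries, 0 (0%) lacked a peak in both controls. Absence from one genotype was otherwise found mostly among weak peaks. It held for 33.4% of regions whose lower control percentile was under 5, and for 0.0274% of those between 75 and 80. These values chose the region and are given as its description.

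**Figure D1:**
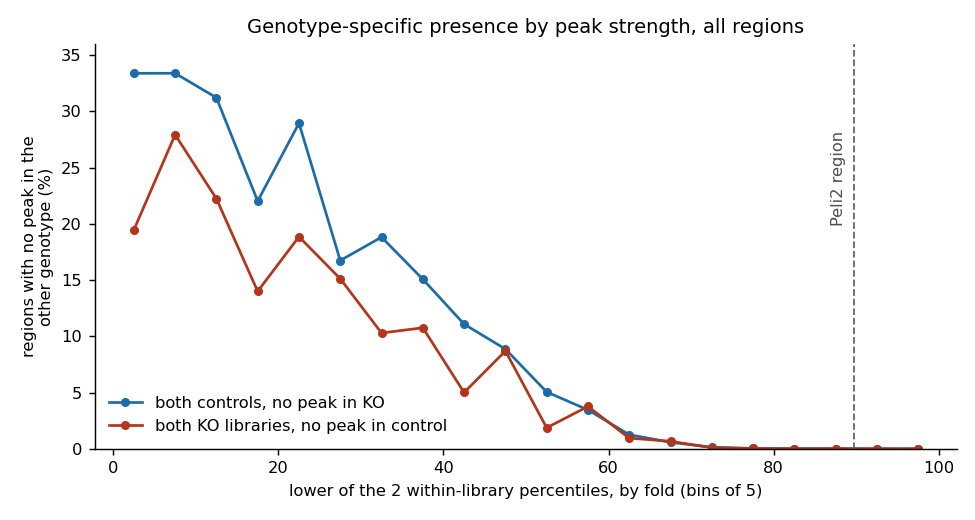
Share of all regions held by both libraries of one genotype that had no peak in either library of the other (vertical axis, %), by the lower of the 2 within-library percentiles (horizontal axis, bins of 5). Blue, both controls, and red, both KO libraries, both drop below 1% above the 65th percentile, and the dashed line marks the Peli2 region at 89.7.

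The chromatin next to the region was open in both genotypes. At chr14:48198950-48199450, near the low end of Gm6498, a region held by all 4 libraries stood at 63.9 and 27.1 in the controls and at 80.8 and 73.9 in the KO libraries, so both KO libraries ranked above both controls. At chr14:48200208-48200441 there was a peak in control 1 (33.2), KO 1 (54.6) and KO 2 (67.3). Beyond the region, at chr14:48207186-48207407, both controls (30.9 and 20.3) and KO 2 (12.0) had a weak peak. KO 1 had none there, and its next peak, chr14:48208426-48208498 at 58.1, was held by no other library. Both KO libraries thus had peaks on either side of the bases where they lacked one. The next control-only region on chromosome 14 in which each control reached a −log10 q of 5 began at 52198224, about 3995 kb further on.

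**Figure D2:**
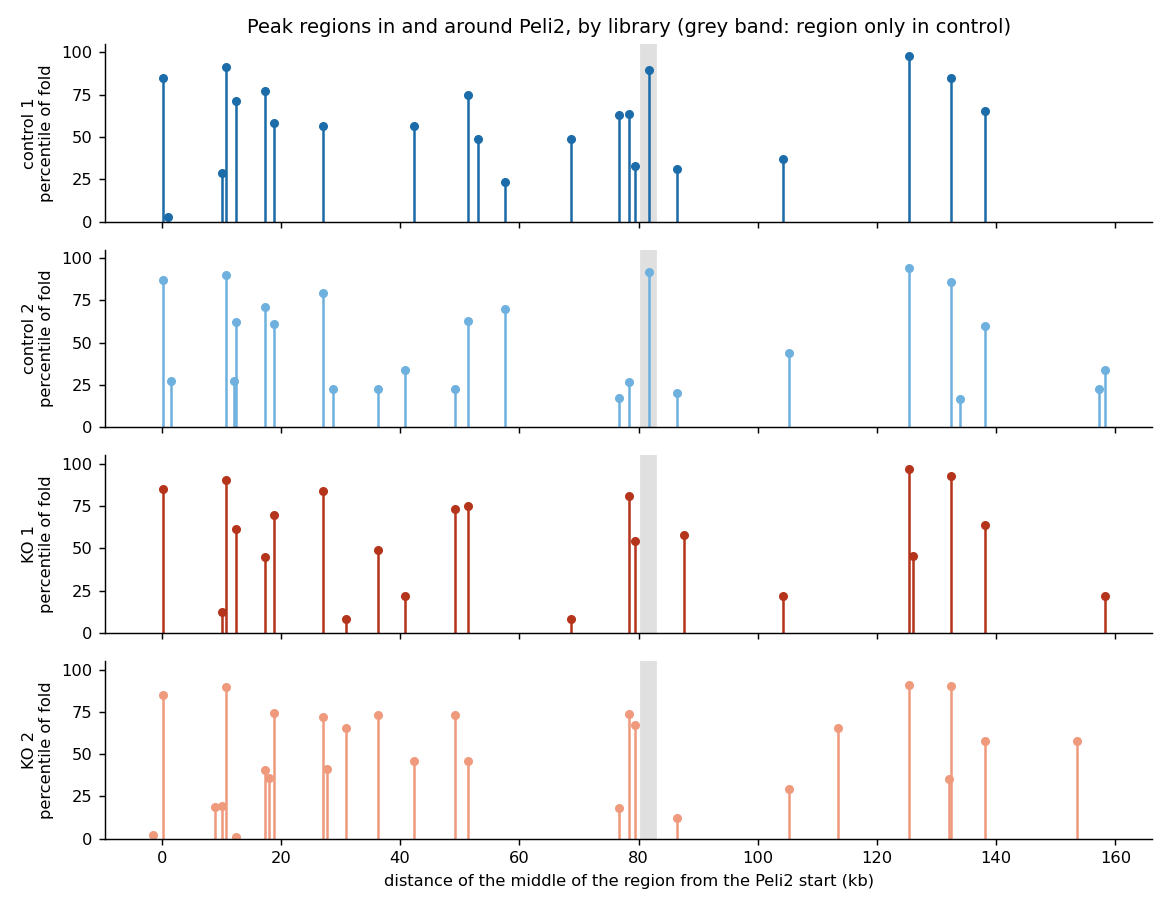
Peak regions in and around Peli2 in each library: horizontal axis, distance of the middle of the region from the Peli2 start (kb), and vertical axis, within-library percentile of fold. The grey band marks the region at about 82 kb, at 89.7 and 91.7 in the controls and without a peak in KO 1 and KO 2, while the start and the peaks near 125 and 132 kb stand in all 4 panels.

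Peli2 was the largest member locus, with 42 regions, of which 26 were in 2 or more libraries and 11 in all 4. Its start region, chr14:48120535-48121737, had percentiles of 85.1 and 87.0 in the controls against 85.2 and 84.9 in the KO libraries, and the groups overlapped. The strongest Peli2 region, chr14:48245751-48246775, stood at 98.0 and 94.4 in the controls and at 96.8 and 91.1 in the KO libraries, again overlapping. Peli2 thus kept its start and its strongest internal peak in every library. Just inside the 5000 bp limit on the low side lay a KO 2 peak at the 2.24 percentile, and the nearest region outside it was 28589 bp further away. On the high side the last region inside had percentiles of 33.8 in control 2 and 21.9 in KO 1, and the next was 8685 bp beyond the limit.

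A pair of further Peli2 regions differed in presence. The region at chr14:48178359-48178701 was in both controls at 23.7 and 70.1 and in neither KO library. The region at chr14:48151680-48151906 was in both KO libraries at 8.39 and 65.2 and in neither control. Each was weak in one of the libraries that held it, unlike the region at 82 kb. Among the 11 regions in all 4 libraries, 2 ranked higher in both controls (18.2%, against 15.1% over all such regions of the series). In both KO libraries 3 ranked higher (27.3% against 22.2%), and 6 overlapped. By the gap between the nearest libraries of the 2 genotypes, the widest separation was at chr14:48137908-48138442. That region stood at 77.1 and 71.2 in the controls against 44.9 and 40.4 in the KO libraries. In fold this was 6.01 and 5.51 against 3.18 and 3.19. The other, chr14:48133231-48133387, was at 71.2 and 62.3 against 61.3 and 0.777, so that only KO 2 stood far off. In the opposite direction, chr14:48253034-48253682 stood at 84.7 and 86.1 in the controls and at 92.8 and 90.4 in the KO libraries. The region chr14:48139433-48139843 was at 58.1 and 60.9 against 70.0 and 74.6, and chr14:48198950-48199450, described above, at 63.9 and 27.1 against 80.8 and 73.9. Shared Peli2 regions thus differed in both directions, at shares near those over the series.

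Peli1 had 15 regions, 4 of them in 2 or more libraries and 2 in all 4, and none was confined to 1 genotype. Its start, chr11:21090902-21091964, was among the strongest peaks of every library, at 98.8 and 97.9 in the controls against 98.5 and 99.9 in the KO libraries. The other shared Peli1 region, chr11:21096730-21097048, was at 66.2, 65.1 and 64.9 in control 1, control 2 and KO 1 and at 80.7 in KO 2, so 1 KO library stood apart. Peli3 had 7 regions, 3 in 2 or more libraries. Its start, chr19:4942488-4943569, stood at 95.1 and 93.0 in the controls and at 95.1 and 94.4 in the KO libraries. Its strongest region, chr19:4927831-4928816, was at 99.8 in both controls and at 99.0 and 99.2 in the KO libraries, and it lies downstream of Peli3 at the start of the neighbouring gene Dpp3. Neither Peli1 nor Peli3 had a region confined to controls, and the starts of all 3 Pellino genes overlapped between genotypes.

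Among the kinases, Irak4 had the highest-ranked start of the 9 genes with a start window. Its region, chr15:94543025-94544085, was at 99.9 in each of the 4 libraries and is shared with the start of the neighbouring gene Pus7l, so the peak cannot be given to one of the 2 genes. Irak4 had 8 regions, 5 in 2 or more libraries and 4 in all 4. One inside the gene, chr15:94564840-94565228, ranked higher in both KO libraries (68.8 and 71.3) than in the controls (59.3 and 58.7). A stronger one less than 1000 bp away, chr15:94565631-94566319, ranked slightly higher in both controls (99.0 and 98.0) than in the KO libraries (97.1 and 97.8). Irak1 had a single region, chrX:74023018-74024383 at its start, with 97.9 and 98.7 in the controls against 97.8 and 94.3 in the KO libraries. The Irak1 groups did not overlap, but control 1 and KO 1 differed by less than the controls did from each other.

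Traf6 had 8 regions, with 4 in 2 or more libraries and 2 in all 4. Its start, chr2:101678083-101679049, was at 97.5 and 98.5 in the controls and at 98.8 and 98.2 in the KO libraries. A pair of regions was confined to controls. The first, chr2:101679261-101679671, stood just past the start region at 0.844 in control 1, near the bottom of that list, and at 19.1 in control 2. The second, chr2:101699102-101699290, lay 20776 bp downstream of the start at 37.2 and 50.8. Neither of them reached a −log10 q of 5 in both controls. A region held by all 4 libraries, chr2:101693751-101694079, ranked higher in both controls, with 88.0 and 73.7 against 67.6 and 69.8.

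Myd88, the adaptor on which most Toll-like receptors and the IL-1 receptor rely, had 5 regions, of which 4 were in 2 or more libraries and 3 in all 4. Its start, chr9:119339945-119340141, was a narrow peak of 197 bp and the weakest start among the members, at 60.4 and 57.3 in the controls against 77.8 and 63.5 in the KO libraries. Both KO libraries ranked above both controls, although KO 2 stood closer to control 1 than to KO 1. The folds were 3.88 and 3.91 in the controls against 5.67 and 4.02 in the KO libraries. The strongest Myd88 region, chr9:119340762-119341831, was at 96.6 and 98.3 in the controls against 96.8 and 98.0 in the KO libraries, and it covers the start of the neighbouring gene Acaa1a.

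The receptors had few regions, in gene bodies of 5.55 kb (Tlr2) and 19.0 kb (Tlr4) against 160.8 kb at Peli2. Per 10 kb of body and flanks, regions in 2 or more libraries numbered 1.93 at Tlr2, 0.689 at Tlr4 and 1.52 at Peli2. Tlr2, which senses bacterial lipoproteins, had 4 regions, and its start, chr3:83840918-83841903, was at 89.6 and 90.7 in the controls and at 95.9 and 89.3 in the KO libraries. The other 2 Tlr2 regions in all 4 libraries both ranked higher in the controls. At chr3:83839475-83839904, inside the gene, they were 58.8 and 46.7 against 18.1 and 39.4. At chr3:83845236-83845545, upstream of the start, they were 71.5 and 67.3 against 65.8 and 51.2. Tlr4, the receptor for lipopolysaccharide, also had 4 regions. Its start window was not analysed here, and the region at the low edge of its body, chr4:66827178-66828360, stood at 97.3 and 95.6 in the controls and at 94.5 and 89.0 in the KO libraries, without overlap. The other shared Tlr4 region, chr4:66843359-66843529, was weak and ranked higher in the KO libraries, at 63.6 and 29.4 against 23.7 and 22.6.

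Nlrp3 had 17 regions, with 9 in 2 or more libraries and 4 in all 4. Its first start, chr11:59541217-59541933, was at 86.9 and 85.9 in the controls and at 86.7 and 79.6 in the KO libraries. Its second start, chr11:59542227-59542858, was at 76.7 and 73.4 against 76.3 and 78.7, and both starts overlapped between genotypes. The regions confined to controls lay inside the gene. The one at chr11:59554566-59554810 stood at 61.5 and 50.8, and the one at chr11:59555823-59556100 at 23.7 and 33.8. The region confined to the KO libraries, chr11:59537260-59537477, lay upstream of the first start, with its middle at −4201 bp, at 62.3 and 21.8. None of the 4 Nlrp3 regions shared by all libraries separated the genotypes.

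**Figure D3:**
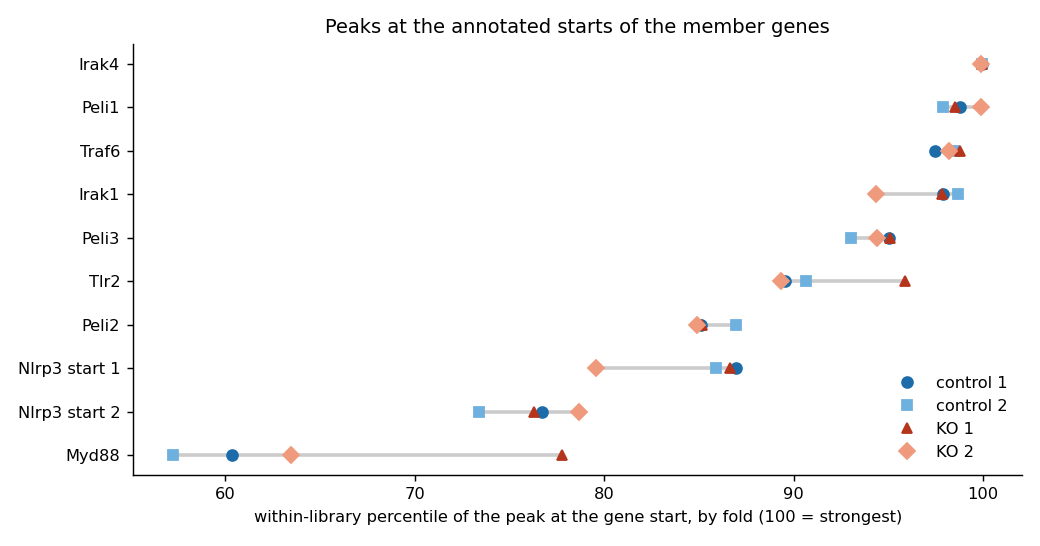
Within-library percentile by fold (horizontal axis, 100 is strongest) of the peak at each annotated start of 9 member genes, 1 symbol per library. The starts run from Myd88, at 57.3 to 77.8, to Irak4, at 99.9 in each library. Only at Myd88 and Irak1 do the 2 blue control symbols and the 2 red KO symbols not overlap. Over all regions in all 4 libraries, 15.1% ranked higher in both controls and 22.2% in both KO libraries.

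All 9 genes with a start window had a peak there in all 4 libraries, a state shared by 47.8% of the 32619 promoter windows. Of those windows the median mean percentile was 94.1, and Peli1, Peli3, Irak1, Irak4 and Traf6 lay above it, while Peli2, Tlr2, Nlrp3 and Myd88 lay below it.

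Counted together, 6 of the 61 member regions in 2 or more libraries were confined to controls (9.84%), at Peli2, Traf6 and Nlrp3 with 2 each, against 6.05% over all regions of the series. In the opposite direction 2 were confined to the KO libraries (3.28%), against 3.47% over all. Because Peli2 was selected for such a region, the counts were also taken without that gene. Among the 35 remaining regions, 4 were confined to controls (11.4%) and 1 to the KO libraries (2.86%). A peak in all 4 libraries was found in 34 of 61 (55.7%), against 58.4% over all. Each of these shares rests on few regions and was not tested.

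Of the 34 regions in all 4 libraries, 9 ranked higher in both controls (26.5%), against 15.1% over all such regions. For 6 the percentile was higher in both KO libraries (17.6%), against 22.2% over all, and for 19 the genotypes overlapped. The median difference in percentile, control minus KO, was 0.33 over the members and −0.45 over all regions. Neither share was tested. The 9 were spread over Peli2 (2), Tlr2 (2), Peli3, Irak1, Irak4, Traf6 and Tlr4.

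**Figure D4:**
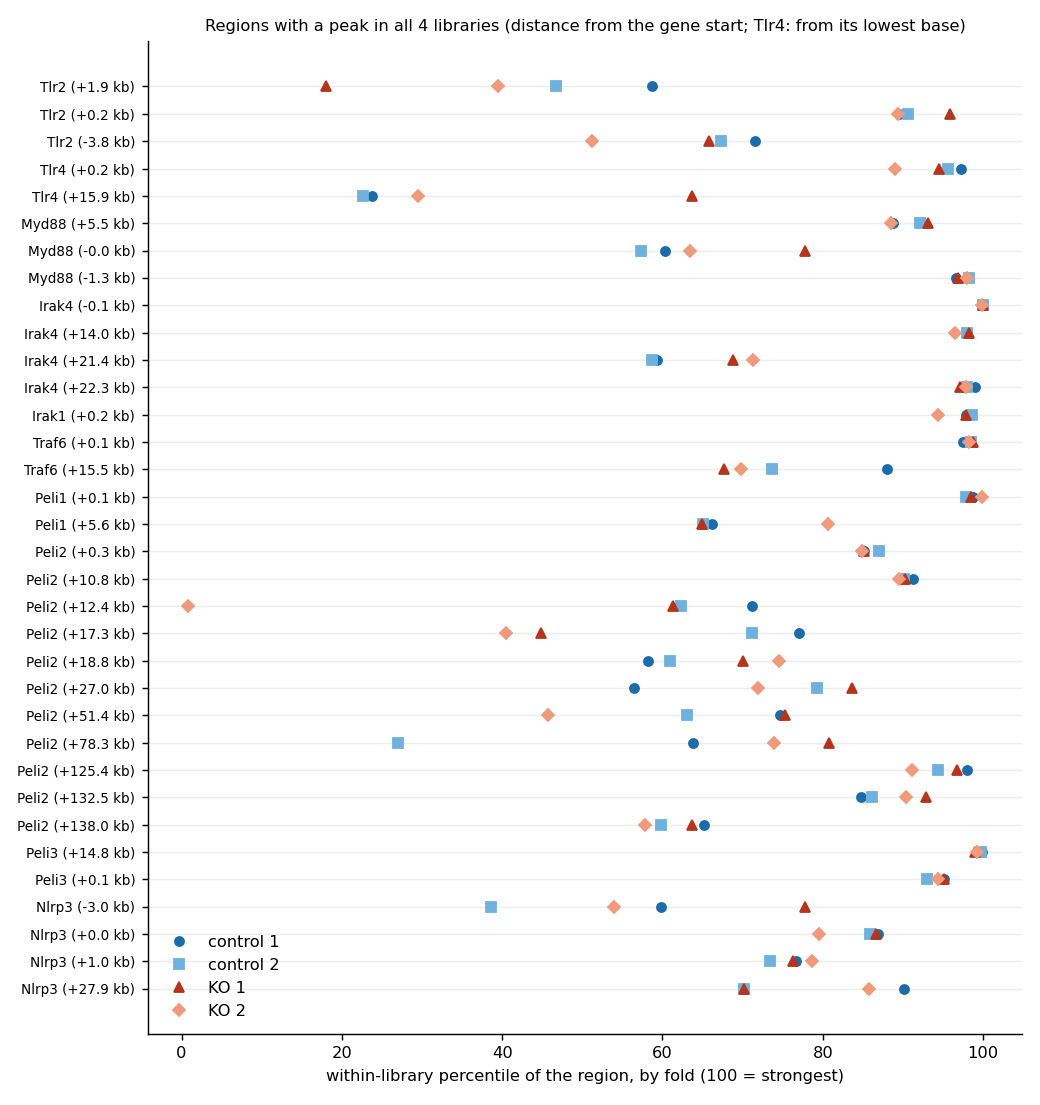
Within-library percentile by fold (horizontal axis) of the 34 member regions with a peak in all 4 libraries, each named by its gene and the distance of its middle from the gene start, 1 symbol per library. Symbols bunch at the strong starts above 95 and spread in weaker regions. Of the Peli2 regions without overlap, the widest gap between nearest blue and red symbols is at 17.3 kb (71.2 and 77.1 against 40.4 and 44.9).

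Libraries did not contribute equally to the regions seen only once. Of 50 member regions found in 1 library, 24 came from KO 2, and 8, 9 and 9 came from control 1, control 2 and KO 1. These 24 were 33.3% of the KO 2 member regions, near the 34.2% of KO 2 regions that stood alone over the series. The other libraries were below their series shares, with 14.3% against 31.2% in control 1, 14.5% against 23.4% in control 2 and 15.3% against 32.4% in KO 1. Per 100000 summits, the 10 genes held 40.4 and 45.0 in the controls against 39.1 and 46.1 in the KO libraries (exact two-sided permutation test, p = 1, n = 2 per genotype). For single genes p reached the smallest possible value of 0.333 at Irak4, with 4.68 and 4.19 in the controls against 3.38 and 3.74, and at Tlr4, with 1.44 and 2.67 against 3.38 and 3.32. These p-values are not adjusted over the 10 genes.

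To place the members, 71 other genes of the route were counted in the same way. They held 851 regions, of which 435 were in 2 or more libraries. Of these 29 were confined to controls (6.67%, against 6.05% over all regions of the series) and 10 to the KO libraries (2.30% against 3.47%). In all 4 libraries were 284 (65.3% against 58.4%). The 29 lay at 25 genes. The inflammasome sensor Aim2, the IL-1 receptor Il1r1 and the NF-kappaB regulators Nfkbie and Nfkbiz had 2 each. Both Nfkbie regions were near the bottom of the control lists, at 0.397 and 0.939 and at 0.421 and 0.205. Of the Nfkbiz regions, 1 was at 4.41 and 13.8 and the other at 48.8 and 33.8. The 10 confined to the KO libraries lay at 10 genes. The strongest confined to controls was at the start of Tlr3, the receptor for double-stranded RNA, chr8:45410598-45410780, with 66.2 and 66.9. Next were one at Il18rap, chr1:40516400-40516700, with 56.5 and 64.1, and one at Nfkb1, chr3:135675660-135675744, with 56.5 and 58.1. Those confined to the KO libraries were led by one at Map3k7, which encodes the kinase TAK1, at chr4:32010928-32011071, with 70.7 and 57.9, followed by one at Nfkb1, chr3:135593991-135594149, with 26.1 and 37.9. At Il1r2 and Il18rap the third and the fourth were tied at a lower percentile of 21.9. The Peli2 region, at 89.7, was selected as the highest of all regions confined to controls, so no comparison with it is drawn here.

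Among the 284 pathway regions in all 4 libraries, 48 ranked higher in both controls (16.9%) and 61 in both KO libraries (21.5%), close to the 15.1% and 22.2% over all. By role, the regions confined to controls were 7 of 98 for receptors, 2 of 22 for adaptors, 4 of 87 for kinases, 2 of 60 for ubiquitin enzymes, 8 of 87 for NF-kappaB proteins and their inhibitors, 4 of 57 for inflammasome genes and 2 of 24 for cytokines. Over all regions of the series 6.05% were confined to controls and 3.47% to the KO libraries. In each role the pathway regions confined to the KO libraries numbered between 0 and 3. Such counts are too small to set one role apart from another, and no difference between roles was tested.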

How the data were processed

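ATAC-Seq was measured in 4 libraries of sorted mouse bone marrow HSCs, 2 control and 2 KO, grouped by their titles. Per the labels and the submitters' processing notes the authors aligned reads with Bowtie2 to mm10 and called peaks per library with MACS2, with versions and settings not given in the sources used here. The authors deposited peak lists whose columns hold the fold (a ratio over local background), the −log10 p and the −log10 q of each summit, with no read counts. The deposited lists also hold a capped score made from the −log10 p, which was not used. Therefore the count test of the study could not be run, depth is unknown and no counting interval is given.

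Peaks on the autosomes and X were merged at 1 bp overlap, and regions were assigned to gene bodies of RefSeq (GRCm38.p6) with a 5000 bp flank. Summit columns hold offsets from the interval start, except in 253 to 492 rows of each list that hold chromosome positions, which were used directly. The value of a region was its highest fold, turned into a percentile among the intervals of that library. All 10 member and 71 pathway genes matched by symbol, 9 members had a promoter window, and a marker start was the window with most libraries. Member genes, lists, motifs and tests were chosen with earlier results of these data known. Every member was named, with its start, its strongest region and each region confined to 1 genotype. For pathway genes, those with most confined regions and the 3 strongest regions each way were named. Other regions were named after their values were seen. Alternatives changed the score, the overlap, the flank and the libraries. Functions were tested on simulated lists. Python 3.11.15, numpy 2.4.6, pandas 2.3.3, scipy 1.17.1 and matplotlib 3.10.9 were used.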

Additional observations from a re-analysis of the deposited data

How the results depend on the processing

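No rule used here could add a KO peak to the Peli2 region at 82 kb, since the nearest listed one ended 1669 bp before it. Its lack of a KO peak under every presence rule run with all 4 libraries therefore restates the selection. In both controls the region was kept under each of these rules. Its lower control percentile was 71.8 when only summits reaching a −log10 q of 5 were kept (the q limit below), 67.3 among the strongest 100000 summits of each library, and between 85.0 and 90.8 otherwise. In a further rule the q limit applied to presence only, and the other genotype had to lack even a weak peak. The region at 82 kb, for which Peli2 was selected, was then the 1 member region confined to controls, against 0.0647% over all regions. Confined to the KO libraries were 0, against 0.00654% over all. Member regions confined to controls numbered 3 under the q limit (9.38%, against 7.02% over all regions) and 2 among the strongest 100000 (6.25% against 2.75%), and both sets held the Peli2 region at 17 kb, which all 4 libraries list at lower scores. Those confined to the KO libraries numbered 0 (against 0.807% over all) and 4 (12.5% against 3.11%), and 1 with summit windows of 200 bp (1.72% against 3.89%) or a flank of 1000 bp (1.79% against 3.47%). Regions in all 4 libraries numbered 20 under the q limit (62.5% against 67.6%), 19 among the strongest 100000 (59.4% against 72.1%) and 20 where intervals had to cover a share of 0.5 of the region (39.2% against 39.6%). Those ranked higher in both KO libraries numbered 0 under the q limit (0% against 9.44% of all shared regions). They numbered 2 among the strongest 100000 (10.5% against 25.4%) and 10 by mean fold (29.4% against 17.6%). Under the same rules, in that order, 8 (40% against 28.2%), 6 (31.6% against 14.2%) and 8 (23.5% against 18.7%) ranked higher in both controls. Ranking among the shared regions alone, an alternative chosen after seeing the data, gave 12 higher in both controls (35.3% against 18.6% over all). It gave 6 higher in both KO libraries (17.6% against 19.1%). Pathway regions confined to controls and to the KO libraries numbered 14 and 1 under the q limit (6.01% and 0.429%, against 7.02% and 0.807% over all), and 7 and 4 among the strongest 100000 (3.17% and 1.81%, against 2.75% and 3.11%).

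Leaving out 1 library in turn gave 7 to 16 member regions confined to controls (15 without control 1, 16 without control 2) and 4 to 26 confined to the KO libraries (26 without KO 1, 11 without KO 2, 4 without control 1, 7 without control 2), since 1 library in place of 2 then defines a genotype. It gave 34 to 39 in all remaining libraries, 11 to 20 higher in controls (16 without control 2, 20 without KO 1) and 9 to 15 higher in KO libraries (14 without control 1, 10 without control 2, 15 without KO 2). Pathway regions ranged from 43 to 134 confined to controls and from 19 to 129 confined to the KO libraries. No share over all regions is given for the counts with 1 library left out, so they cannot be set against the series. The summit difference per 100000, 0.08, ranged from −3.42 without KO 1 to 3.59 without KO 2, was −2.22 without control 2, and was −1.71 under the q limit (exact permutation p = 0.667, n = 2 per genotype). The cause of these changes was not tested. No paired analysis was possible because no test was made on regions and the replicate numbers are not said to mark a shared animal or day. Unknown depth limits any reading of an absent peak.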
